A study of Mus musculus with 12 samples.

Results

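This account compares bone marrow progenitors that lost Ezh2 and carried reduced Tet2 with wild-type progenitors, before any disease had been recorded in the mutant. Its members are 4 of the 12 one-colour arrays of the study, found by their titles: the Tet2KD/KDEzh2-/- arrays without a disease suffix, 1 from LSK cells and 1 from granulocyte-macrophage progenitors (GMPs), and the wild-type arrays of the same cell types. All were from C57BL/6 mice. The double mutant joined a homozygous hypomorphic (knockdown) allele of Tet2 with a null state of Ezh2, and the wild-type cells carried neither. In both groups the donor cells were fetal liver cells that had repopulated the marrow of recipient mice, from which the LSK cells (the fraction without lineage markers that carries Sca-1 and c-Kit and holds stem and multipotent progenitors) and the GMPs were purified. The remaining arrays were used only to look at the same genes elsewhere: Ezh2-/- and Tet2KD/KD single mutants, and Tet2KD/KDEzh2-/- cells from mice with a myelodysplastic/myeloproliferative disease (MDS/MPN) or with refractory anaemia with excess blasts (RAEB), each with 1 LSK and 1 GMP array. Mouse age, sex, the driver of Ezh2 deletion, the number of mice behind each RNA and any host cells that remained are not given in the sources used here.

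Ezh2 is the main catalytic subunit of Polycomb repressive complex 2 (PRC2), which methylates lysine 27 of histone H3 and keeps developmental genes silent in blood cells. Tet2 oxidises 5-methylcytosine and so takes part in the removal of DNA methylation. Both genes are recurrently mutated in human myelodysplastic and myeloproliferative disease, and loss of either alters haematopoietic stem cells and myeloid output in mice.

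Since PRC2 occupies mainly CpG-rich promoters and Tet2 acts on methylated CpG, the promoters of 3 genes that the comparison turns on are printed first. They are Bmpr1a and Hmga2, which were higher in the double mutant, and Camp, which was lower. Each window runs from 250 bases before to 50 bases after the start of the gene in RefSeq (assembly GRCm38.p6), 5′ to 3′ on the gene's own strand, which is the minus strand for all 3 genes. The windows are chr14:34502497-34502796 for Bmpr1a, chr10:120476420-120476719 for Hmga2 and chr9:109849407-109849706 for Camp. Capitals mark the dinucleotide CG, which reads the same on both strands.
Bmpr1a: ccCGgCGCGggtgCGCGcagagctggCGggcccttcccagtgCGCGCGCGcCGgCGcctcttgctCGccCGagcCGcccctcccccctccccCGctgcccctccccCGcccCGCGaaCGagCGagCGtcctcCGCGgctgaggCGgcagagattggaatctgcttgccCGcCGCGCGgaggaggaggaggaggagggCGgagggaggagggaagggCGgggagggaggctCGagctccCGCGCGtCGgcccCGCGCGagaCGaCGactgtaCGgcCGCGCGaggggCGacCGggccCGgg
Hmga2: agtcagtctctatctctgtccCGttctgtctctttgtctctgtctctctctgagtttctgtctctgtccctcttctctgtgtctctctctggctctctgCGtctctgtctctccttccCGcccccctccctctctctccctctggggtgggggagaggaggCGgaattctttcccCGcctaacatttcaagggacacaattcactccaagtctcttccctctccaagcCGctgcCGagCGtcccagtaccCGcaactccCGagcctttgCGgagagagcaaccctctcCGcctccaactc
Camp: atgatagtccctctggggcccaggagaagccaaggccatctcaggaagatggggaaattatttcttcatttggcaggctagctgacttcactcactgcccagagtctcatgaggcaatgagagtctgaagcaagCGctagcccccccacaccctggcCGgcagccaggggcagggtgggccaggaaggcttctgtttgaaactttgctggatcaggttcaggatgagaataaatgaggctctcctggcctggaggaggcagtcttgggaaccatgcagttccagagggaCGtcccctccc
The Bmpr1a window held 48 CpG, the Hmga2 window 12 and the Camp window 3. CG occurred at least once in 98.8% of the 10447 promoter windows of tested genes that the RefSeq table covered, with a median of 20 per window. No methylation or histone mark was measured on these arrays.

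The arrays carried 62976 spots. The array-wide 75th percentile of processed signal was 194.8 to 250.8 on the double mutant arrays and 233.7 to 241.4 on the wild-type arrays, the share of gene spots well above background was 48.6 to 51.4%, and no gene spot was saturated. Signals below are log2 values relative to that percentile of the array, so 0 is the percentile itself and a difference of 1 is a 2-fold difference. Of 20259 measured genes, 13029 exceeded background clearly on 2 or more of the 4 arrays and were tested. No group was repeated: the 2 cell types are the only replication, p-values measure how alike the LSK and GMP differences were and not the spread between mice, and in bulk RNA fewer cells of a type and less RNA per cell cannot be told apart. The 4 arrays, with those of the single mutants, lay on 1 slide.

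The labels were first checked against the arrays. Tet2 read -0.79 in LSK cells and -1.01 in GMPs of the double mutant, against 0.44 and 1.57 in wild-type cells. The difference was -1.91 ± 0.41 (SE) with an adjusted p of 0.479 in limma, and a second Tet2 probe was lower in both cell types as well. Among the single mutants Tet2 was low only on the Tet2KD/KD arrays, at -1.61 in LSK cells and -0.64 in GMPs, against 0.12 and 1.51 in Ezh2-/- cells. Ezh2 itself read 2.65 and 3.12 in the double mutant, against 2.76 and 3.24 in wild-type cells. Whether its single probe lies in the deleted part is not given in the sources used here, so this value is no check of the Ezh2 genotype.

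All 10 LSK markers, among them Kit, Ly6a and Mecom, were well above background on both LSK arrays, and all 7 GMP markers, among them Elane and Mpo, were so on every one of the 4 arrays. Elane, neutrophil elastase, read 9.07 in double mutant GMPs and 8.98 in wild-type GMPs. Of the 5 B-cell markers, 2 were well above background on all 4 arrays (Cd79b, between 3.56 and 4.47, and Vpreb1) and the others, among them Pax5, on none. Of the 5 endothelial and stromal markers, 3 were well above background in LSK cells and 2 in GMPs of both genotypes, with Lepr between 4.63 and 5.06, while Cdh5 and Col1a1 were at background on all 4. Xist read 2.52 and 1.17 in the double mutant and 2.57 and 1.63 in wild-type cells, and Eif2s3y, a Y-linked gene, was at background on all 4. On the single mutant arrays the reverse was seen, with Xist between -6.15 and -4.36. Late neutrophil markers were less even: their summed linear signal, in units of the array's percentile, was 10.74 in LSK cells and 50.3 in GMPs of the double mutant, against 91.5 and 44.9 in wild-type cells. Such a sum is set mainly by the brightest markers, such as S100a8 at 5.11 in double mutant GMPs. The median log2 signal of the 8 markers was -1.62 and -3.12 in the double mutant, against 0.49 and -0.82 in wild-type cells. Camp, Ltf, Ngp and Retnlg, described below as lower genes, are among the 8.

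No gene passed the threshold in limma after Benjamini-Hochberg adjustment: 0 of 13029 (0%), with a smallest adjusted p of 0.458, while 1310 (10.1%) had an unadjusted p under 0.05. Genes are therefore described by their values. Counts at 2-fold are of the processed signals as they stand, and the dimmer array of a pair may lie at background. The brighter array had to be well above background in each cell type counted. Ifit3, with differences of 1.45 in LSK cells and 2.02 in GMPs, is therefore not counted, as both of its GMP signals lay at background. In both cell types, 90 genes (0.691% of those tested) were at least 2-fold higher in the double mutant, and 39 (0.299%) were at least 2-fold lower. In LSK cells alone 246 genes (1.89%) were at least 2-fold higher and 230 (1.77%) lower. In GMPs alone 441 (3.38%) were higher and 203 (1.56%) lower. Of any size, 4547 genes (34.9%) were higher and 3543 (27.2%) lower in both cell types, and the median difference over all tested genes was 0.02 in each. Opposite signs of at least 2-fold in each cell type were seen for 4 genes (0.0307%) higher in LSK cells and lower in GMPs, and for 8 (0.0614%) the other way.

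**Figure D1:**
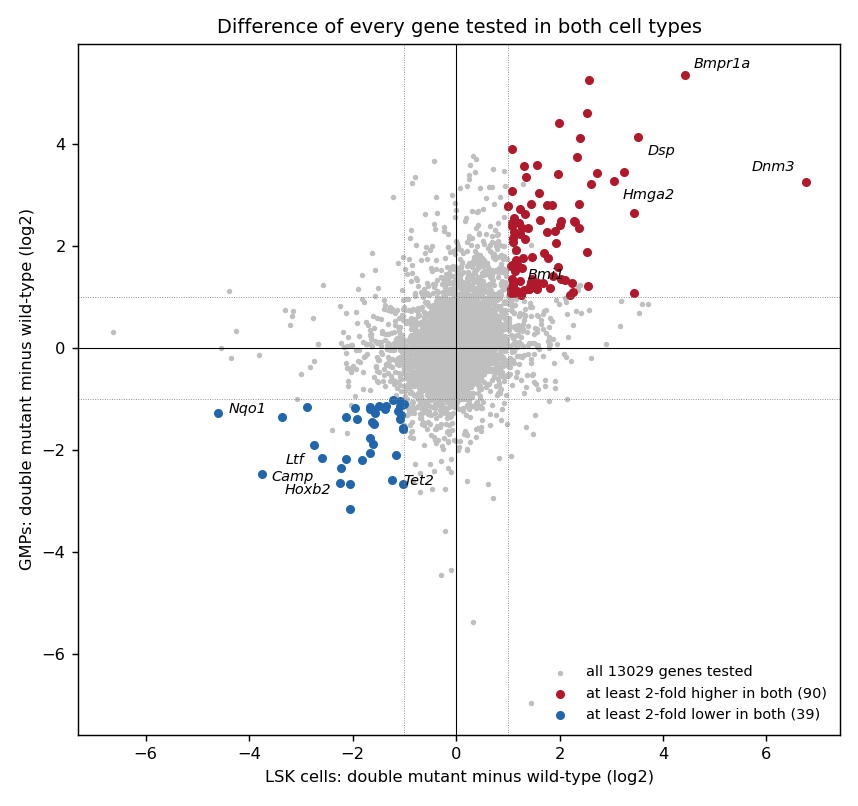
Each point is 1 of the 13029 genes tested, placed by its log2 difference (double mutant minus wild-type) in LSK cells on the horizontal axis and in GMPs on the vertical axis; dotted lines mark 2-fold. The 90 genes at least 2-fold higher in both (red) include Bmpr1a and Dnm3 at the upper right, and the 39 at least 2-fold lower in both (blue) include Camp and Nqo1 at the left.

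The differences of the 90 higher genes ran from 1.01 to 6.76 in LSK cells, with a median of 1.54, and from 1.04 to 5.36 in GMPs, with a median of 2.12. The GMP difference was the larger for 61 of them. Many came from signals near background: the wild-type array was not well above background for 33 of the 90 in LSK cells and for 38 in GMPs, and 38 genes were measured on all 4 arrays. Genes that entered the test only through the group in which they were bright had to differ, so these counts describe and do not support. For a gene measured on only 1 side of a pair, a bound is given below, the brighter array against the higher of the dim array's own signal and the lowest signal well above background on it. By these bounds 70 of the 90 higher and 32 of the 39 lower genes kept 2-fold in both cell types. The last gene inside the 2-fold limit was Aif1l, at 1.01 in LSK cells and 2.79 in GMPs, and the first outside it was Irf7, at 0.999 and 1.02.

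Genes named from here on were ranked by the smaller of their 2 differences. That choice favours genes whose double mutant and wild-type arrays do not overlap, so such statements below describe and do not support. The share of all tested genes without overlap was not counted. Bmpr1a, a type I receptor for bone morphogenetic proteins, had the highest rank by processed signal, a rank that rests on wild-type signals at background. It read -1.78 in LSK cells and -0.91 in GMPs of the double mutant, against -6.20 and -6.27 in wild-type cells, where it was not well above background. It was thus at least 5.03-fold higher in LSK cells and at least 9.61-fold higher in GMPs, with a fitted difference of 4.89 ± 0.29 (SE) and an adjusted p of 0.458 in limma. Hmga2, an architectural chromatin protein typical of fetal stem cells, read 2.05 and -0.72 in the double mutant, against -1.002 and -3.99 in wild-type cells. Both double mutant arrays lay above both wild-type arrays, the gene was measured on all 4, and the difference was 3.16 ± 0.12 (SE), or 3.05 in LSK cells and 3.28 in GMPs. A second Hmga2 probe was also higher in both cell types.

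Dsp, which encodes the desmosome plaque protein desmoplakin, read -2.00 and 0.25 in the double mutant, against -5.53 and -3.90 in wild-type cells, a difference of 3.84 ± 0.21 (SE). It was at least 4.30-fold higher in LSK cells. Another desmosome gene, Pkp2 (plakophilin), which was chosen after its values were seen, read -1.36 and -2.38 in the double mutant and -3.71 and -6.13 in wild-type cells. Ninl, a centrosomal protein, read -1.79 and -1.98 in the double mutant, against -4.40 and -5.20 in wild-type cells, at least 4.99-fold higher in LSK cells and 4.59-fold in GMPs. In these 3 genes each double mutant array lay above both wild-type arrays.

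Dnm3, a dynamin GTPase of membrane fission, read 0.71 in LSK cells and -2.82 in GMPs of the double mutant, against -6.05 and -6.08 in wild-type cells. It was at least 28.2-fold higher in LSK cells and at least 2.55-fold higher in GMPs, so the 2 cell types gave very different sizes, and the SE of the fitted difference of 5.01 was 1.05. Its single mutant signals, from -6.15 to -5.93, and its diseased signals, from -6.51 to -5.77, all lay at background. Dnm3 was thus seen on the 2 double mutant arrays without disease and on no other array of the 12.

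The other members of the highest 12 read as follows. Elovl2, an elongase of polyunsaturated fatty acids, read -3.09 and -2.43 in the double mutant and -6.34 and -5.88 in wild-type cells, at least 2.03-fold and 3.37-fold higher in LSK cells and GMPs. Plag1, a zinc finger transcription factor known as an oncogene in human salivary tumours, read -1.45 and -2.65 in the double mutant and -4.17 and -6.09 in wild-type cells, at least 6.30-fold and 2.87-fold higher. Zfyve9, which encodes the SARA protein that brings Smads to TGF-beta receptors, read -2.20 and -0.54 in the double mutant and -4.73 and -5.17 in wild-type cells, at least 3.76-fold and 12.4-fold higher. In all 3 genes both wild-type arrays were at background and both double mutant arrays were not. Bex2, an X-linked gene first known from brain, was measured on all 4 arrays, at 1.37 and 0.95 in the double mutant and -1.02 and -3.17 in wild-type cells. Ly6k, a member of the Ly6 surface protein family, read -1.69 and 1.01 in the double mutant and -5.13 and -1.65 in wild-type cells. For Fndc4, a secreted fibronectin type III protein, the signals were -0.12 and -0.86 in the double mutant and -2.69 and -6.13 in wild-type cells. In each of these 3 genes both double mutant arrays lay above both wild-type arrays, except that Ly6k in double mutant LSK cells lay just below Ly6k in wild-type GMPs. The smallest bounds among the 12 belonged to Arxes1, with -3.81 and -3.37 in the double mutant and -6.18 and -6.21 in wild-type cells, at least 1.23-fold and 1.75-fold higher. The adjusted p of the 12 genes in limma ran from 0.458 to 0.479.

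**Figure D2:**
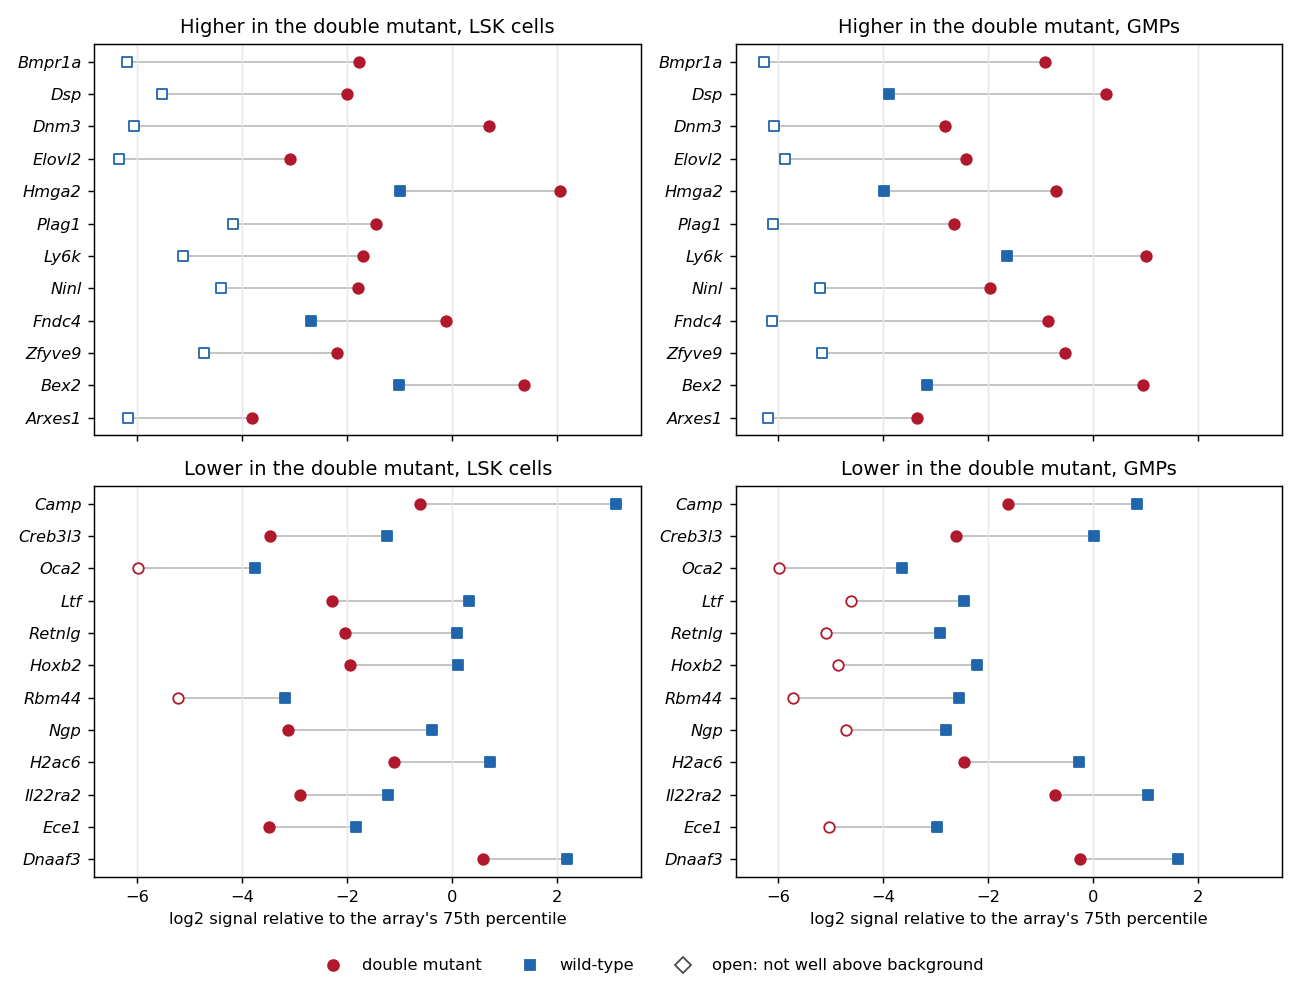
Log2 signal relative to the array's 75th percentile (horizontal axis) for the 12 named higher genes (upper panels) and the 12 named lower genes (lower panels), in LSK cells on the left and GMPs on the right; circles are the double mutant array, squares the wild-type array, 1 array each, and open symbols are not well above background. For Bmpr1a the wild-type squares sit open at -6.20 and -6.27, whereas Hmga2 is measured on all 4 arrays.

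The 39 lower genes had differences from -4.60 to -1.005 in LSK cells, with a median of -1.63, and from -3.15 to -1.004 in GMPs, with a median of -1.39. The double mutant array was not well above background for 11 of the 39 in LSK cells and for 18 in GMPs, and 21 genes were measured on all 4 arrays. The last gene inside the limit was Kcnj4, at -1.23 in LSK cells and -1.004 in GMPs, and the first outside it was S100a9, at -3.08 and -0.99.

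Camp, the cathelicidin of neutrophil secondary granules, stood first among the lower genes. It read -0.61 in LSK cells and -1.63 in GMPs of the double mutant, against 3.13 and 0.83 in wild-type cells, a difference of -3.10 ± 0.39 (SE) with an adjusted p of 0.458 in limma. Both double mutant arrays lay below both wild-type arrays, and a second Camp probe was lower in both cell types. Other secondary granule genes were with it. Ltf, lactoferrin, read -2.28 and -4.62 in the double mutant and 0.32 and -2.46 in wild-type cells. Ngp, neutrophilic granule protein, read -3.13 and -4.71 in the double mutant and -0.38 and -2.80 in wild-type cells. Retnlg, a resistin-like protein of neutrophils, read -2.03 and -5.10 in the double mutant and 0.10 and -2.92 in wild-type cells. These 3 genes were measured in both LSK arrays and were at background in double mutant GMPs. In LSK cells of the Ezh2-/- and Tet2KD/KD single mutants Ltf read -2.31 and -2.72, Ngp -3.06 and -3.33, and Retnlg -5.49 and -2.94. These values too lay below wild-type LSK cells, so the lower LSK signal was not particular to the double mutant. In single mutant GMPs Ltf read -3.07 and -2.77, Ngp -3.08 and -2.10, and Retnlg -4.38 and -5.83.

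Camp, Ltf, Ngp and Retnlg are themselves among the 8 neutrophil markers. Of the 8, 7 were well above background in LSK cells and 4 in GMPs of the double mutant. In the wild-type 7 were so in each cell type. The GMP counts differed only through Ltf, Ngp and Retnlg, which were chosen as lower. Lcn2 read -1.21 in double mutant and 0.67 in wild-type LSK cells, and S100a9 read 2.72 and 5.80. In GMPs Lcn2 read 3.14 in the double mutant and 3.17 in the wild-type, and S100a9 read 2.72 and 3.71. Mmp9, a gene of mature neutrophils, was at background on all 4. S100a8, an abundant neutrophil calcium-binding protein, read 1.31 in double mutant LSK cells and 4.47 in wild-type LSK cells, but 5.11 in double mutant GMPs and 4.36 in wild-type GMPs. The part of neutrophil RNA in the lower genes was not tested.

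Lower genes outside the granulocyte programme were of mixed function. Hoxb2, a homeobox gene of the HoxB cluster, read -1.95 and -4.87 in the double mutant and 0.10 and -2.22 in wild-type cells, a difference of -2.35 ± 0.20 (SE). Creb3l3, a membrane-bound transcription factor of liver metabolism, read -3.48 and -2.62 in the double mutant and -1.23 and 0.02 in wild-type cells. Il22ra2, the soluble receptor that binds interleukin-22, read -2.90 and -0.72 in the double mutant and -1.23 and 1.03 in wild-type cells. Hoxb2 was at background in double mutant GMPs, and the other 2 genes were measured on all 4 arrays. H2ac6, a histone H2A gene, was lower by 1.82 in LSK cells and 2.20 in GMPs, since it read -1.11 and -2.46 in the double mutant and 0.72 and -0.26 in wild-type cells. Dnaaf3, a dynein arm assembly factor, read 0.59 and -0.26 in the double mutant and 2.19 and 1.62 in wild-type cells. Ece1, endothelin converting enzyme, read -3.49 and -5.04 in the double mutant and -1.83 and -2.99 in wild-type cells. Oca2, a melanosome membrane protein, and Rbm44, an RNA-binding protein of germ cells, were at background on both double mutant arrays, so their bounds are small: at least 1.41-fold and 1.34-fold lower for Oca2, and at least 2.11-fold and 2.83-fold lower for Rbm44, in LSK cells and GMPs.

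Some of the larger single differences in this set were uneven between the cell types. Nqo1, a quinone reductase, read -6.15 in LSK cells and -4.37 in GMPs of the double mutant, both at background, against -1.54 and -3.11 in wild-type cells. It was at least 6.55-fold lower in LSK cells and at least 1.94-fold lower in GMPs. Gstm2, a glutathione transferase, read -3.62 and -0.75 in the double mutant and -0.24 and 0.59 in wild-type cells, and a second Gstm2 probe had the same sign.

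The single mutant arrays took no part in choosing these genes, so the contrast between them is a separate measurement. For the 90 higher genes the Ezh2-/- array exceeded the Tet2KD/KD array by a median of 0.93 in LSK cells and 1.58 in GMPs, against -0.05 and -0.01 over all tested genes. At least 2-fold in both cell types, Ezh2-/- exceeded Tet2KD/KD for 37 of the 90 (41.1%), against 0.982% of all genes, and it did so by any amount for 67 (74.4%), against 28.3%. It was below Tet2KD/KD in both for 5 of the 90 (5.56%), against 34.6%. For the 39 lower genes the same contrast had medians of 0.02 and 0.10, with 13 genes (33.3%) above and 10 (25.6%) below in both cell types. At least 2-fold below Tet2KD/KD in both cell types, the Ezh2-/- arrays held 3 of the 90 higher genes (3.33%) and 4 of the 39 lower genes (10.3%), against 0.33% of all genes. These are descriptions of 1 array per genotype and cell type, with no test. Unlike the 2-fold counts between double mutant and wild-type, 2-fold counts on the single mutant and diseased arrays did not require a brighter array well above background. The 90 higher genes were dimmer than all tested genes, with median wild-type signals of -3.27 and -3.60, against 0.99 and 1.06. The all-gene shares are therefore not matched for brightness, here or for the diseased arrays below, and the part of brightness was not tested.

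**Figure D3:**
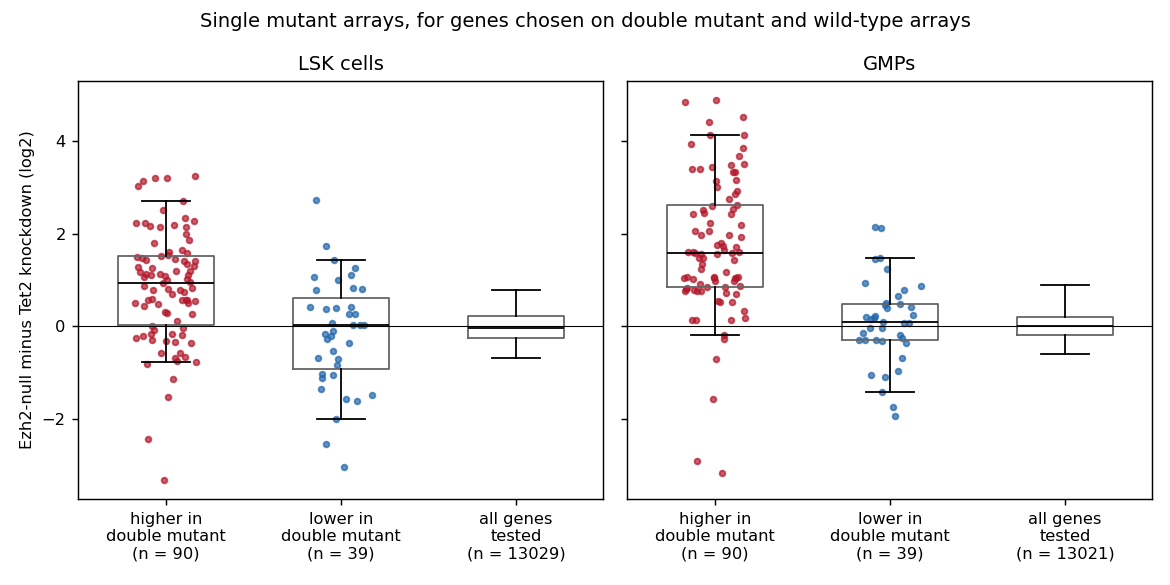
Log2 difference between the single mutants, Ezh2-/- minus Tet2KD/KD (vertical axis), in LSK cells and GMPs, for the 90 genes higher and the 39 genes lower in the double mutant and for all tested genes; points are genes, boxes hold the interquartile range with the median as a line, and whiskers reach the 5th and 95th percentiles. The higher genes have medians of 0.93 and 1.58, against -0.05 and -0.01 for all genes.

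Bmpr1a was bright in Ezh2-/- cells, at -2.94 in LSK cells and -1.43 in GMPs, and at background in Tet2KD/KD cells, at -6.15 and -6.31. Hmga2 read 1.69 and -0.28 in Ezh2-/- cells, against -0.11 and -1.74 in Tet2KD/KD cells. Zfyve9 read -3.22 and -1.27 in Ezh2-/- cells and -5.45 and -6.11 in Tet2KD/KD cells. In all 3 genes the Ezh2-/- signal exceeded the Tet2KD/KD signal in both cell types. Bmi1, a core subunit of Polycomb repressive complex 1 (PRC1), read 3.17 and 3.75 in Ezh2-/- cells and 1.98 and 2.16 in Tet2KD/KD cells. In the double mutant Bmi1 read 3.10 and 3.72, against 1.92 and 2.08 in wild-type cells. Camp differed less between the single mutants, at 1.06 and 0.66 in Ezh2-/- cells and 1.04 and 1.35 in Tet2KD/KD cells. Wild-type cells read 3.13 and 0.83, so in LSK cells Camp was lower in both single mutants as well. In GMPs it was slightly lower in Ezh2-/- cells and higher in Tet2KD/KD cells.

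Over the 90 higher genes the median signal was -1.47 in LSK cells and -1.60 in GMPs of the double mutant, -1.65 and -1.53 in Ezh2-/- cells, -2.69 and -3.07 in Tet2KD/KD cells and -3.27 and -3.60 in wild-type cells. Over the 39 lower genes it was -2.90 and -2.95 in the double mutant, -1.90 and -2.52 in Ezh2-/- cells, -1.91 and -2.69 in Tet2KD/KD cells and -0.38 and -1.61 in wild-type cells. The double mutant and wild-type medians are set by the choice of genes.

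The diseased double mutant arrays, on other slides than the arrays without disease, were read against the single mutants. All 4 lay at least 2-fold above the Tet2KD/KD array of their cell type for 28 of the 90 higher genes (31.1%), against 0.852% of all genes. All 4 lay above both single mutants by any amount for 14 of the 90 (15.6%), against 11.3% of all genes, and at least 2-fold above both for C4b alone, against 0.169% of all genes. C4b encodes complement component 4, and whether its probe also binds RNA of the near-identical copy C4a could not be checked. Bmpr1a read -0.61 in MDS/MPN and -0.76 in RAEB LSK cells, and -1.59 and -1.68 in the GMPs. Camp was uneven across the diseased arrays: it read 4.88 in MDS/MPN LSK cells, -0.96 in RAEB LSK cells, close to the double mutant without disease, and 2.64 and 1.21 in MDS/MPN and RAEB GMPs. Ly6k, higher in the double mutant without disease, read from -4.20 to -3.39 on the 4 diseased arrays. All 4 exceeded the Ezh2-/- array at least 2-fold for 3 of the 90 (3.33%), Alpk1, C4b and Slamf9, against 0.514% of all genes. They lay at least 2-fold below it for 3 others (3.33%), Ly6k, P4ha2 and Slc27a2, against 0.192% of all genes. By any amount, all 4 lay above it for 16 of the 90 (17.8%), against 21.3% of all genes, and below it for 13 (14.4%), against 11.8%. Of the 39 lower genes, all 4 lay below the Tet2KD/KD array by any amount for 7 (17.9%), against 8.94% of all genes, and at least 2-fold for Hoxb2 and Scarf2 (5.13%), against 0.23%. They lay below both single mutants for 5 of the 39 (12.8%), against 5.19% of all genes, and at least 2-fold for 0 of the 39, against 0.0307%. Because slide and disease coincide, they cannot be told apart here. Sex-linked signals differed as well: Xist read 1.35 and 1.63 on the diseased LSK arrays and -5.56 and -5.59 on the diseased GMP arrays, against background on the single mutant arrays, and their part in these readings was not tested.

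Gene lists were then read by role, each beside the same counts over all tested genes (34.9% higher and 27.2% lower in both cell types, medians 0.02 and 0.02). Of the 13 genes of DNA methylation and its removal, 12 were tested, 9 were higher and 2 lower in both cell types, and the medians were 0.09 in LSK cells and 0.03 in GMPs. The 2 lower genes were Tet2 and the methyltransferase Dnmt3b, which read 4.05 and 3.39 in the double mutant and 4.22 and 3.61 in wild-type cells. Uhrf1, which guides maintenance methylation, differed by 0.19 and 0.18. Tet2 apart, no gene of this list reached 2-fold in both cell types.

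All 11 PRC2 genes were tested, with 2 higher and 5 lower in both cell types and medians of -0.06 and -0.04. Suz12, a core subunit, read 1.82 and 2.23 in the double mutant, against 1.94 and 2.53 in wild-type cells. Ezh1, the paralogue of Ezh2, differed by 0.14 in LSK cells and -0.03 in GMPs. The PRC2 subunits thus lay within 2-fold of wild-type throughout. Among 19 of 20 PRC1 genes tested, 5 were higher and 7 lower in both cell types, and Bmi1 was the 1 gene at least 2-fold higher in both. Its difference was 1.41 ± 0.17 (SE), adjusted p 0.458 in limma.

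For TGF-beta and BMP signalling, 23 of 30 genes were tested, 12 were higher and 3 lower in both cell types, and the medians were 0.06 and 0.18. Bmpr1a and Id1 were the 2 genes at least 2-fold higher in both. Id1, an inhibitor of helix-loop-helix factors and a target of BMP signalling, read 3.74 and 3.29 in the double mutant, against 2.42 and 2.15 in wild-type cells. Its relative Id3 read 1.70 and -1.63 in the double mutant, against 0.40 and -2.29. On the single mutant arrays Id1 read 3.63 and 2.94 in Ezh2-/- cells and 3.99 and 3.21 in Tet2KD/KD cells, all above wild-type cells of the same type. In the contrast between the single mutants Id1 was slightly lower in Ezh2-/- cells, where Bmpr1a was higher. In Tet2KD/KD cells, where Id1 lay above wild-type cells, Bmpr1a was at background, as in wild-type cells. On the diseased arrays Id1 read 1.49 in MDS/MPN LSK cells, below wild-type LSK cells, although Bmpr1a lay above them. It read 2.62 in RAEB LSK cells, and 3.61 and 4.75 in MDS/MPN and RAEB GMPs. The type II receptor Bmpr2 differed by -0.20 in LSK cells and 0.54 in GMPs.

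Of 14 oncofetal genes, 7 were tested, and Hmga2 was the 1 gene past 2-fold in both cell types, with medians of -0.09 and 0.10 for the list. Igf2bp2, an RNA-binding protein and known Hmga2 target, was lower, at -2.22 and -1.82 in the double mutant and -1.35 and -0.97 in wild-type cells. Dlk1, an imprinted fetal gene, differed by 0.65 and 1.16. Of the HoxA genes and their partners, 11 of 14 were tested, with 4 higher and 4 lower in both cell types. Pbx3, the partner of Hox proteins, read 1.39 and 1.07 in the double mutant, against -0.61 and -1.36 in wild-type cells, a difference of 2.21 ± 0.16 (SE). Hoxa10 was uneven, with -0.17 against -0.63 in LSK cells and -2.96 against -6.10 in GMPs for double mutant against wild-type. Hoxa7 and Meis1 had the opposite sign to Pbx3, with differences of -0.42 and -0.87 for Hoxa7 and -0.28 and -0.51 for Meis1. Among the 5 of 10 HoxB genes tested, none was higher in both cell types and Hoxb2 and Hoxb4 were lower, with medians of -0.83 and -0.01.

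Non-blood structural and neuronal genes form a list assembled from earlier results on these arrays, so its direction is no evidence of its own. Of 19 genes 13 were tested, and 8 were at least 2-fold higher in both cell types: Dsp, Camkv, Ppm1e, Ly6k, Ninl, Cenpv, Tulp4 and Hif3a. By their bounds 2 of these fell short of 2-fold: Tulp4, at least 1.68-fold and 1.46-fold higher in LSK cells and GMPs, and Hif3a, at least 1.40-fold higher in GMPs. Cenpv, a centromere protein, was bright on all 4 arrays, at 4.75 and 5.61 in the double mutant and 3.00 and 3.33 in wild-type cells. Krt18, a keratin, and the cadherin Cdh1 differed by -0.34 and -0.13 in LSK cells and by 0.55 and 1.095 in GMPs.

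Interferon response genes, which cells express after sensing viral nucleic acid or interferon itself, were mostly higher on the double mutant arrays. Of 46 genes 41 were tested, 34 (82.9%) were higher and 3 lower in both cell types, and the medians were 0.47 in LSK cells and 0.46 in GMPs. At an unadjusted p under 0.05 in limma 25 of the 41 were higher and 0 lower, against 5.29% and 4.77% of all genes, and none passed the adjusted threshold. The list was chosen with earlier results of these data known, so these counts describe and do not support. Usp18, which removes Isg15 from proteins, read 2.31 and 0.39 in the double mutant, against 1.23 and -2.07 in wild-type cells. Isg15 read 4.91 and 2.96 in the double mutant, against 3.81 and 1.73 in wild-type cells, and Ifi27l2a read 5.92 and 4.44, against 4.82 and 2.27. These 3 genes were at least 2-fold higher in both cell types. Stat2, a transducer of interferon signals, differed by -0.09 in LSK cells and -0.23 in GMPs. On the single mutant arrays Isg15 read 4.38 and 2.40 in Ezh2-/- cells and 4.54 and 1.88 in Tet2KD/KD cells. These values too lay above wild-type cells of the same type, so a higher Isg15 signal was not particular to the double mutant.

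Of 23 p53 target genes 22 were tested, 11 were higher and 3 lower in both cell types, with a median of 0.40 in LSK cells and one of -0.02 in GMPs. Phlda3, an inhibitor of Akt, read 1.93 and 0.16 in the double mutant, against 0.96 and -1.06 in wild-type cells. Cdkn1a, the inhibitor p21, read 3.62 and 1.46 in the double mutant, against 2.73 and 0.70. Among 5 of 7 kinase inhibitor genes tested, 3 were higher in both cell types, Cdkn1a, Cdkn2c and Cdkn2d. Cdkn2c, an inhibitor of Cdk4 and Cdk6, read 2.29 and 2.35 in the double mutant, against 1.58 and 1.39 in wild-type cells.

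**Figure D4:**
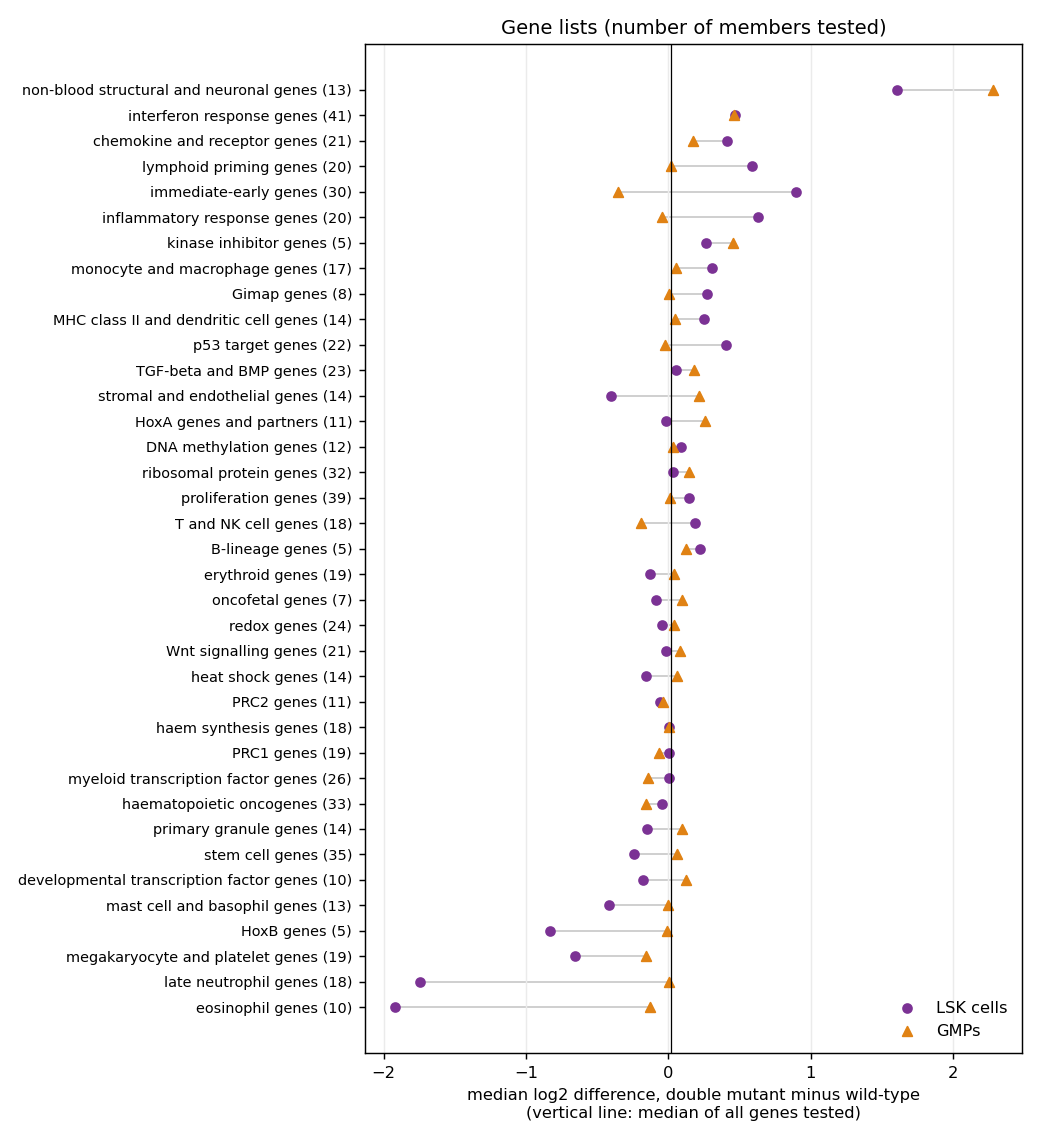
Median log2 difference, double mutant minus wild-type (horizontal axis), in LSK cells (circles) and GMPs (triangles) for each gene list, with the number of members tested in brackets; the vertical line is the median of all tested genes. Interferon response genes lie at 0.47 and 0.46, while late neutrophil genes lie at -1.75 in LSK cells and 0.00 in GMPs.

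Several lineage lists differed between the arrays in LSK cells more than in GMPs, a difference that was not tested. Late neutrophil genes, 18 of 26 tested, had a median of -1.75 in LSK cells, where 2 were positive, and of 0.00 in GMPs, where 9 were. Of these 18, 5 were at least 2-fold lower in both cell types: Camp, Ltf, Ngp, Retnlg and Wfdc21. Eosinophil genes, 10 of 12 tested, showed medians of -1.92 and -0.13, with none higher in LSK cells. Epx, eosinophil peroxidase, read -4.15 and 1.85 in the double mutant, against -2.13 and 2.25 in wild-type cells. Beside these lists stand the neutrophil marker sums given above, which also differed in LSK cells.

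Megakaryocyte and platelet genes, 19 of 24 tested, had medians of -0.66 and -0.16, with 1 higher and 11 lower in both cell types. Pf4, platelet factor 4, read 1.90 and -0.54 in the double mutant, against 4.03 and 0.80 in wild-type cells. All 4 megakaryocyte markers were well above background on all 4 arrays, and their summed linear signal was 11.0 and 2.18 in the double mutant, against 30.1 and 3.42 in wild-type cells. Their part in the list was not tested.

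Lymphoid priming genes, 20 of 23 tested, had a median of 0.58 in LSK cells and one of 0.02 in GMPs, with 9 higher and 2 lower in both cell types. Dntt, the terminal transferase of lymphoid progenitors, read 8.36 and -1.97 in the double mutant, against 7.43 and -2.55 in wild-type cells. Immediate-early genes, which respond within minutes to a stimulus, had opposite medians, 0.89 in LSK cells and -0.36 in GMPs, over 30 of 33 genes tested. Of the 30, 29 were positive in LSK cells and 7 in GMPs. Fos differed by 1.00 and -0.34, and Egr1 by 0.92 and -1.07. Redox genes, 24 of 24 tested, had medians of -0.05 and 0.04, and Nqo1 and Gstm2 were the 2 genes at least 2-fold lower in both cell types by processed signal. Gclm, a subunit of the enzyme that starts glutathione synthesis, was lower by 0.52 and 0.55.

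**Figure D5:**
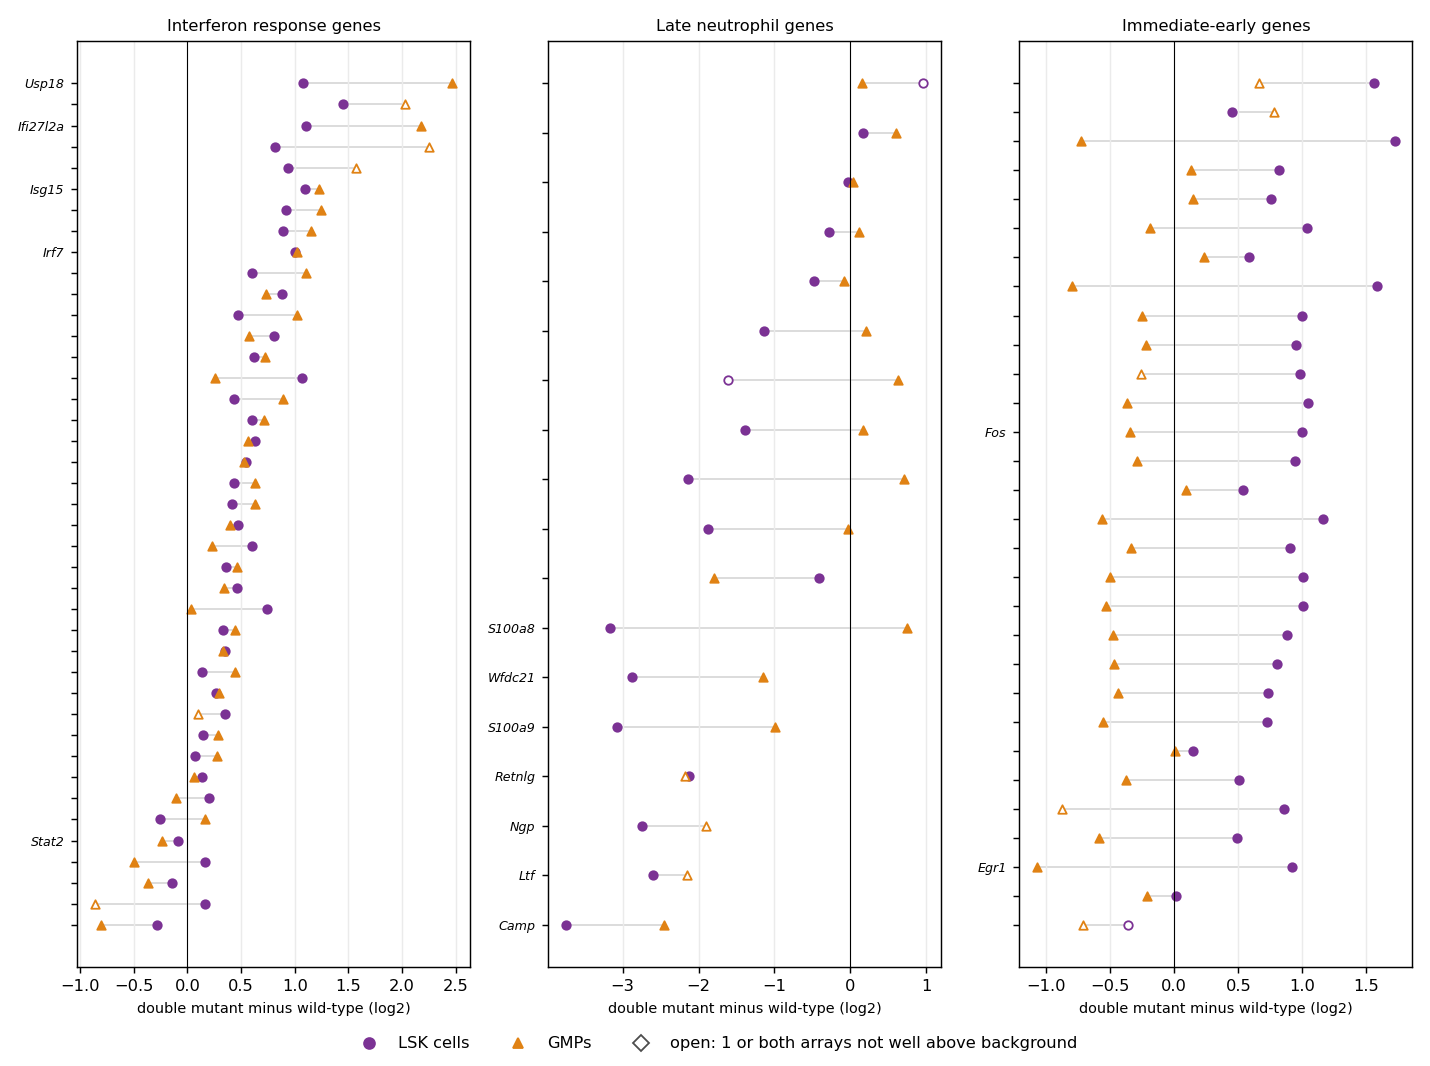
Log2 difference, double mutant minus wild-type (horizontal axis), of each tested interferon response gene, late neutrophil gene and immediate-early gene in LSK cells (circles) and GMPs (triangles); open symbols have 1 or both arrays not well above background, and genes named in the text are labelled. Of the 41 interferon genes 34 are above 0 in both cell types, and of the 30 immediate-early genes 29 are above 0 in LSK cells and 7 in GMPs.

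Promoter composition was read for the 74 of the 90 higher genes (82.2%) that the RefSeq table covered. Of these 49 (66.2%) were CpG-rich, defined as a GC content of at least 50% and an observed over expected CpG ratio of at least 0.6, against 64.5% of the 10447 windows of all tested genes. The median number of CpG was 23 in the higher genes and 20 in all. Of the 39 lower genes 30 had a window (76.9%), and 11 of these 30 (36.7%) were CpG-rich, with a median of 7 CpG. Since fewer than 80% of the lower genes had a window, the comparison is void for them and nothing is read from it.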

How the data were processed

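Per the labels' protocols, total RNA was labelled with Cy3 and hybridised to one-colour Agilent arrays. Per the file headers, the authors' deposited scanner files come from Feature Extraction 10.7.1.1, whose processed signal is a linear intensity after background correction. The deposited saturation, outlier, control and background columns are flags. The authors' deposited value table held the same intensity at all 62976 spots.

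From these, log2 of the processed signal minus log2 of the array's 75th percentile over gene spots was computed, outlier spots were left out and spots of a probe averaged. Probes were named by unversioned RefSeq accession through a table of GRCm38.p6 (for names alone, as the files give a different build): 26762 of 55681 probes had 1 symbol, 0 had several and 28919 had none. The brightest probe over the 4 arrays stood for a gene.

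limma 3.58.1 in R 4.3.3 fitted genotype with cell type as a term on the 4 arrays (1 residual degree of freedom, moderated over all genes), two-sided, with Benjamini-Hochberg adjustment and a threshold of 0.05. The script was tested on simulated data. The median coefficient of variation of repeated probes was 7.82 to 8.77% on the 4 arrays, and their number limits the precision. Genes were named by a fixed rule: Tet2, Ezh2, Bmpr1a and Camp, up to 12 genes in each direction with the same sign in both cell types ranked by the smaller difference, up to 4 such genes per list, and up to 5 in each opposite-sign pattern. The ranked and opposite-sign groups left out provisional symbols (Gm, Rik, LOC) and Xist and Y-linked genes, and asked for a signal well above background on the brighter array of each cell type, and other genes were named after their values were seen. The members and lists were chosen with earlier results of these data known. The alternatives tried were quantile normalization, normexp background correction, a signal floor, other filters and probe rules, larger fits, and leaving out each array. Some genes that the rule would name are not reported here.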

Additional observations from a re-analysis of the deposited data

Results flagged for a closer look

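Genes with opposite directions in the 2 cell types, at least 2-fold in each, were 12 in all: 4 (0.0307% of genes tested) were higher in LSK cells and lower in GMPs of the double mutant, and 8 (0.0614%) the reverse. Each direction rests on 1 double mutant and 1 wild-type array, and the difference between cell types was not tested. The value given first is the GMP difference minus the LSK difference on the log2 scale.

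Tgfbi, an extracellular matrix protein induced by TGF-beta, had a value of 3.48 and was measured on all 4 arrays, at 0.61 in LSK cells and 4.15 in GMPs of the double mutant, against 2.23 and 2.29 in wild-type cells. Axl, a receptor tyrosine kinase, had a value of 2.68 and was also measured throughout, at -2.99 and -2.51 in the double mutant, against -1.49 and -3.68 in wild-type cells. Fcgr1, the high-affinity receptor for immunoglobulin G, had a value of 3.82, with a difference of -2.57 for LSK cells, where the double mutant was at background, and 1.25 for GMPs. The other 5 genes had a signal at background on 1 array of each pair. Pde9a, a phosphodiesterase, had a value of 4.18 and Hus1b 3.25, both lower in LSK cells and higher in GMPs. Gpr18, a G protein-coupled receptor, had a value of -3.18, Map7d2 of -2.90 and the receptor kinase Mst1r of -2.83, all 3 higher in LSK cells and lower in GMPs.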

How the results depend on the processing

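No gene passed the limma threshold in the 4-array fit or under any of the 10 alternatives that kept the 4 arrays, with a smallest adjusted p between 0.0835 and 0.507. Leaving out 1 array in the 8-array fit, where the lone array is assumed to vary like the others, gave 0 to 6 genes: 6 without the double mutant GMP array (among them Ago4, Ccdc117, Dnm3, Gm4710 and Rabif) and 2 without the wild-type LSK array (1700088E04Rik and Kctd15). Dnm3 then had a difference of 6.79 and an adjusted p of 0.00165, which rests on double mutant LSK cells alone. With normexp background correction the counts at least 2-fold higher and lower in both cell types were 16 and 8, in LSK cells 72 and 64, and in GMPs 110 and 35. Requiring a signal above background on all 4 arrays gave 38 and 21, 105 and 121, and 216 and 108, and no filter gave 386 genes higher in LSK cells. Fewer dim genes can pass under the stricter filter by construction. The normexp setting added an offset of 50 to every signal, which shrinks log2 differences of dim genes by construction. Its part in the normexp counts was not tested. Median differences over both cell types moved as follows: PRC2 genes from -0.03 to -0.055 with normexp and -0.065 with the mean of all probes; HoxA genes from 0.12 to -0.20 above background on all 4 arrays and -0.20 with the mean of probes; non-blood genes from 2.01 to 0.59 with normexp, 0.78 with a floor and 0.11 above background on all 4; interferon genes from 0.52 to 0.50 with quantile normalization, 0.44 with normexp, 0.48 above background on all 4 and 0.53 with the mean of probes; redox genes from -0.01 to -0.10 with quantile normalization. The sign was reversed for Pcgf3 (0.10 with normexp), Plagl1 (0.43 with the mean of probes), and for 4 genes when 1 array was left out, where the range was -0.435 to 0.0272 for Suz12 and -0.0288 to 0.603 for Phf19 (reversed without the double mutant GMP array), and -0.43 to 0.0363 for Mtf2 and -0.161 to 0.0062 for Cdkn1b (reversed without the wild-type LSK array); the cause was not tested. The other 1067 values of single genes and 148 of counts and lists kept their direction and side of the threshold or moved little. Signals near background limit both sets: by bounds, 20 of the higher and 7 of the lower genes fell short of 2-fold in 1 or both cell types.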

Other observations

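Further genes of the 2 sets were looked at after their values were seen. Trim29, a tripartite motif protein of epithelia, read -1.63 in LSK cells and -1.65 in GMPs of the double mutant, against -3.62 and -6.07 in wild-type cells, and -3.92 and -5.92 in Ezh2-/- cells and -3.09 and -6.05 in Tet2KD/KD cells. On the 4 diseased double mutant arrays it was between -6.50 and -5.75. C4b read 1.61 and 1.18 in the double mutant, against -0.25 and -1.63 in wild-type cells, and between -2.09 and -0.01 in the single mutants. It stayed high on the diseased arrays, at 2.22 and 2.40 in LSK cells and 2.86 and 2.64 in GMPs. Atp9a, a lipid flippase, was higher in the double mutant, at 2.67 and 2.85 against 0.79 and 1.43 in wild-type cells, but among the single mutants it was brightest with Tet2 knockdown, at 3.00 and 1.22 in Ezh2-/- cells and 4.14 and 4.40 in Tet2KD/KD cells. The X-linked genes Xlr3b and Xlr4a, members of a multicopy family whose copies a probe may not separate, were lower in the double mutant: Xlr3b read 0.18 and 0.17, against 1.26 and 1.29 in wild-type cells, and Xlr4a read -0.13 and -0.32, against 0.99 and 0.92.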
